A study of Mus musculus with 13 samples.

Results

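Lyrm7, Gm2a and 7 genes close to them on mouse chromosome 11 (Ccdc69, Hint1, Cdc42se2, Rapgef6, Anxa6, Slc36a1 and G3bp1) are described here in haematopoietic progenitors that lack miR-146a, Tifab or both. The 9 genes are 9 of the 24062 rows of the expression table, and all 9 are among the 11867 genes that average at least 0 log2 CPM (reads scaled to library depth, on a log2 scale) and were tested. They were picked by name, for lying distal of the miR-146a gene and with their values known from these same libraries. Lyrm7 and Gm2a stand at the head of the list because of how they differ when miR-146a is lost, so their values in the miR-146a comparisons are a description and carry no test.

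The cells were LK cells, progenitors that carry c-Kit but neither lineage markers nor Sca-1, sorted from the bone marrow of lethally irradiated Boy/J mice that had received donor marrow, with 7.0 Gy followed by 4.75 Gy 3 h later. The donor marrow was TIFAB-/-;miR-146a-/- (dKO, 4 libraries), TIFAB+/+;miR-146a-/- (miR-146a_KO, 3 libraries), TIFAB-/-;miR-146a+/+ (TIFAB_KO, 3 libraries) or TIFAB+/+;miR-146a+/+ (WT, 3 libraries). The labels give an age of 2 to 5 months and 3 mice per group, although dKO has 4 libraries, and they state neither the strain of the donors nor a sort that removes cells of the recipient. All 13 libraries therefore come from transplanted, irradiated hosts, WT included. No label ties a library to a mouse, so the p-values measure the spread between libraries, which may be technical.

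miR-146a is a microRNA induced by NF-kB that lowers Traf6 and Irak1 and so dampens Toll-like receptor signalling. Tifab encodes a protein that inhibits signalling through TRAF6, and mice without miR-146a are known for myeloid proliferation. Of the 9 genes, Lyrm7 encodes a chaperone that brings the Rieske iron-sulphur protein into mitochondrial respiratory complex III. Gm2a encodes the GM2 activator, a lysosomal cofactor that presents GM2 ganglioside to beta-hexosaminidase A. The others encode a coiled-coil protein (Ccdc69, known from human cells as a regulator of the central spindle), a binding partner of the GTPase CDC42 (Cdc42se2), a RAP guanine nucleotide exchange factor (Rapgef6), a calcium-dependent membrane-binding protein (Anxa6), a nucleotide-binding histidine triad protein (Hint1), a proton-coupled amino acid transporter of lysosomes (Slc36a1) and a core protein of stress granules (G3bp1).

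The mature miRNA removed in dKO and miR-146a_KO is shown first, since its seed sets the letters looked for in the 9 genes. The sequences are from RefSeq (GRCm38.p6, the same coordinates as mm10), and capitals mark the seed, bases 2 to 8. The guide strand of miR-146a is encoded at chr11:43374435-43374456 on the minus strand, and miR-146b, encoded on chromosome 19 and not deleted here, has the same seed.
mmu-miR-146a-5p: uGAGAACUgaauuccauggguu
mmu-miR-146b-5p: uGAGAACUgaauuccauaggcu
The complement of the seed, AGTTCTC, was searched in the sense strand of the longest annotated 3′ UTR of each gene (GENCODE M21). Lyrm7 has no match in its 2773 bases, and Ccdc69, Hint1, Cdc42se2, Anxa6 and G3bp1 have none either. Gm2a, Rapgef6 and Slc36a1 have 1 match each, and none of the 3 is followed by an A. The matches lie at chr11:55111551-55111579 (Gm2a), chr11:54696351-54696379 (Rapgef6) and chr11:55233562-55233590 (Slc36a1), all on the plus strand, and capitals mark the 7 letters.
Gm2a: ccaccacgcctAGTTCTCttgatttgtag
Rapgef6: ttcaagctcagAGTTCTCcccctgtatat
Slc36a1: gatgggctctcAGTTCTCctaccgttgcc
Of 10814 tested genes with an annotated 3′ UTR, 1397 (12.9%) hold the same letters. Among genes whose 3′ UTR is within 10% of the length of that of Lyrm7 the share was 19.7%, and among those of the length of Gm2a 26.0%. A match is a stretch of letters and no measured site, and the absence of one in Lyrm7 covers only that UTR.

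The promoters of Lyrm7 and Gm2a are printed because these are the members with the widest gap between libraries with and without miR-146a. RefSeq entries (GRCm38.p6, 250 bases before to 50 after the start) were at hand for 6 of the 9 genes, not for Ccdc69, Hint1 and Anxa6. Searched on both strands were the box CCAAT, the TATA box in the form TATAAA, the GC box in the form GGGCGG and the letters CACGTG (the core of an element found in lysosomal genes), and capitals mark every match. The Lyrm7 promoter is at chr11:54860548-54860847 on the minus strand, and that of Gm2a at chr11:55097735-55098034 on the plus strand. Both are set on RefSeq starts, which differ from the starts in GENCODE M21. The Lyrm7 window lies wholly inside its GENCODE span (chr11:54826866-54860916), and the Gm2a window ends before its GENCODE span (chr11:55098115-55113029).
Lyrm7: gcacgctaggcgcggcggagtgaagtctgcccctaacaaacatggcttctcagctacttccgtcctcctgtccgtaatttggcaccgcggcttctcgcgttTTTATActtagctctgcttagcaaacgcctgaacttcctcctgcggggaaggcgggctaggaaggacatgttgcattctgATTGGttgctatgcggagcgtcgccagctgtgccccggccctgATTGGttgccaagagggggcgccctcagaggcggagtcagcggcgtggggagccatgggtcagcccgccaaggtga
Gm2a: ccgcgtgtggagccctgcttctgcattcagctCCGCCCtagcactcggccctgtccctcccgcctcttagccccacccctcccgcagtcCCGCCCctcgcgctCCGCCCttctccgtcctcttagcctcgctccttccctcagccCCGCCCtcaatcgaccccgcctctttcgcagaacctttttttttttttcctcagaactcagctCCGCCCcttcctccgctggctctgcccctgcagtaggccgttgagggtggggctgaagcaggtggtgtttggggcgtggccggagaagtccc
Lyrm7 has 2 CCAAT matches and 1 TATAAA match, all 3 on the opposite strand, so that CCAAT reads ATTGG above and the TATA box reads TTTATA. Gm2a has 5 GC boxes, all on the opposite strand, and none of the other motifs. Of 32851 promoters of the same length, 37.4% hold the CCAAT box, 13.6% the TATA box, 35.7% the GC box and 7.15% the letters CACGTG. Slc36a1, the lysosomal transporter gene, has 2 CACGTG matches. No measurement of binding at these promoters was made here.

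Library totals were 7826843 to 12787982 reads. Tifab lay at 2.64, 2.10, 1.72 and 3.46 log2 CPM in dKO and 3.17, 3.56 and 3.69 in TIFAB_KO, against 6.11, 6.15 and 6.01 in miR-146a_KO and 5.34, 5.63 and 5.31 in WT, so it was low in each library that lacks it. The row of the miR-146a gene had 0 reads in all 13 libraries, and the method does not measure mature miRNAs, so the loss of miR-146a was not checked. Kit, which marks the gate, had 269.6 to 459 CPM, and Ly6a, which encodes Sca-1, 0.597 to 5.30 CPM. Summed over 9 rows, macrophage markers had 212 to 252 CPM in dKO, 202 to 233 in miR-146a_KO and 258 to 270 in TIFAB_KO, against 165 to 206 in WT, and none of the 9 was at 0 reads in every library. B lineage markers (5 rows) summed to 13.9 to 20.8 CPM in dKO, 22.5 to 25.9 in miR-146a_KO and 13.01 to 16.0 in TIFAB_KO, against 12.2 to 16.7 in WT. Markers of LK progenitors (10 rows) summed to 10258 to 13728 CPM in dKO, 11658 to 13823 in miR-146a_KO and 14550.3 to 17031 in TIFAB_KO, against 9191 to 13747 in WT. No row of either list was at 0 reads in every library, and the part of these shifts in the values of the 9 genes was not tested. Replicate 3 of TIFAB_KO and replicate 3 of dKO correlated least with the other libraries (median r of 0.947 and 0.951, against 0.962 to 0.974 for the rest), and values without both are given where they matter.

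Lyrm7 was far higher in the progenitors without miR-146a. It lay at 4.72, 4.92 and 4.41 log2 CPM in miR-146a_KO, against 1.86, 1.32 and 1.60 in WT. On the Tifab-null background it lay at 4.82, 4.87, 4.94 and 4.30 log2 CPM in dKO, against 1.14, 2.52 and 2.33 in TIFAB_KO. All 7 libraries without miR-146a lay above all 6 that have it, with 4.30 as the lowest of the 7 and 2.52 as the highest of the 6. In reads, this was 166 to 319 reads per library without miR-146a and 18 to 64 with it, so the gene was counted in every library. The log2 difference was 3.09 ± 0.32 (SE) in miR-146a_KO against WT, or 8.53-fold, and 2.73 ± 0.30 in dKO against TIFAB_KO, or 6.65-fold. These comparisons share no library. Without TIFAB_KO replicate 3 and dKO replicate 3, the difference of Lyrm7 between dKO and TIFAB_KO was 2.83 ± 0.35. In bulk RNA, a larger share of cells that express a gene and more RNA per cell cannot be told apart.

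By group, Lyrm7 averaged 4.73 ± 0.29 log2 CPM in dKO, 4.68 ± 0.26 in miR-146a_KO, 2.00 ± 0.75 in TIFAB_KO and 1.59 ± 0.27 in WT (SD, n = 4, 3, 3 and 3). Neighbours in this order, dKO and miR-146a_KO at the top and TIFAB_KO and WT at the bottom, differed by less than the larger of their SDs. Scaled to the length of its longest transcript, Lyrm7 reached 7.72 CPM per kb over the libraries without miR-146a, against 0.875 CPM per kb in WT. Averaged over all libraries it had 4.65 CPM per kb, at percentile 35.0 of the tested genes.

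Gm2a went the other way and from a much higher level. It lay at 6.28, 5.96 and 6.02 log2 CPM in miR-146a_KO, against 7.42, 7.59 and 7.14 in WT. On the Tifab-null background it lay at 6.21, 6.09, 5.97 and 5.93 log2 CPM in dKO, against 7.74, 7.59 and 7.52 in TIFAB_KO. Every library without miR-146a was below every library with it, by at least the gap between 6.28 and 7.14. The log2 difference was -1.30 ± 0.15 (SE) in miR-146a_KO against WT and -1.57 ± 0.14 in dKO against TIFAB_KO, or 2.46-fold and 2.96-fold lower. Without TIFAB_KO replicate 3 and dKO replicate 3, the difference of Gm2a between dKO and TIFAB_KO was -1.59 ± 0.16. The group means of Gm2a were 6.05 ± 0.12 log2 CPM in dKO, 6.09 ± 0.17 in miR-146a_KO, 7.62 ± 0.11 in TIFAB_KO and 7.38 ± 0.23 in WT (SD). Per length, Gm2a had 16.3 CPM per kb over the libraries without miR-146a, against 40.8 CPM per kb in WT. TIFAB_KO, the group with the highest macrophage marker sums, also had the highest mean of Gm2a. The dKO libraries had higher macrophage marker sums and lower Gm2a than every WT library. TIFAB_KO further had the highest median sums of LK progenitor markers, of T and NK markers and of markers absent by the gate. Its median sums of dendritic cell, B lineage and stromal markers were the lowest. The part of any of these cells in the values of Gm2a was not tested.

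Lyrm7 and Gm2a were thus far apart in opposite directions between the libraries with and without miR-146a, but inside these sets they did not track each other. Over the 7 libraries without miR-146a their Pearson r was 0.23, and over the 6 with it -0.10, both descriptions of libraries that share their depth scaling.

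Ccdc69, whose start lies 19983 bases from that of Gm2a, was lower without miR-146a, with a smaller gap. It lay at 2.90, 3.30 and 3.34 log2 CPM in miR-146a_KO, against 3.94, 4.19 and 4.53 in WT. In dKO it lay at 3.76, 3.45, 3.53 and 3.55 log2 CPM, against 4.21, 3.76 and 4.37 in TIFAB_KO. The 7 libraries and the 6 libraries do not overlap, but the highest dKO library and the lowest TIFAB_KO library are equal to 2 decimals. The log2 difference was -1.04 ± 0.23 (SE) in miR-146a_KO against WT and -0.54 ± 0.22 in dKO against TIFAB_KO. Without TIFAB_KO replicate 3 and dKO replicate 3, the difference of Ccdc69 between dKO and TIFAB_KO was -0.40 ± 0.25.

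Cdc42se2, the CDC42 partner gene, 39190 bases from Lyrm7, was the fourth member without overlap. It lay at 5.59, 5.52 and 5.77 log2 CPM in miR-146a_KO, against 6.01, 5.92 and 5.77 in WT. In dKO it lay at 5.67, 5.70, 5.39 and 5.65 log2 CPM, against 5.84, 6.10 and 5.90 in TIFAB_KO. The sets touch at 5.77, where the highest miR-146a_KO and the lowest WT library agree to 2 decimals. The log2 differences were -0.27 ± 0.15 (SE) in miR-146a_KO against WT and -0.34 ± 0.14 in dKO against TIFAB_KO.

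The other 5 genes overlapped between the libraries with and without miR-146a. Anxa6, the annexin, ranged from 5.20 to 5.45 log2 CPM in dKO and 5.20 to 5.43 in miR-146a_KO, against 5.59 to 5.77 in TIFAB_KO and 5.23 to 5.97 in WT. WT replicate 3, at 5.23, is the library of Anxa6 that overlaps. G3bp1, the stress granule gene, ranged from 6.22 to 6.81 log2 CPM in dKO and 6.38 to 6.70 in miR-146a_KO, against 6.58 to 6.92 in TIFAB_KO and 6.73 to 6.94 in WT. The log2 differences of miR-146a_KO against WT were -0.33 ± 0.18 for Anxa6 and -0.29 ± 0.16 for G3bp1 (SE). Dropping WT replicate 3 gave -0.53 for Anxa6, and dropping WT replicate 1 gave -0.16, so its size rests on single WT libraries. G3bp1 shares 1399 bases at 98.0% identity with the pseudogene Gm5913, which is no row of the table under that symbol. The counts of G3bp1 could thus hold or lack reads of that copy.

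Hint1, Rapgef6 and Slc36a1 overlapped widely between the groups. Hint1, whose start is 5466 bases from that of Lyrm7, ranged from 6.24 to 6.89 log2 CPM in dKO and 6.14 to 6.80 in miR-146a_KO, against 6.22 to 7.11 in TIFAB_KO and 6.31 to 6.43 in WT. Per length it was the most abundant of the 9, with 146 CPM per kb, at percentile 97.4 of the tested genes. Rapgef6 ranged from 8.18 to 8.41 log2 CPM in dKO and 8.11 to 8.22 in miR-146a_KO, against 7.41 to 8.27 in TIFAB_KO and 8.01 to 8.20 in WT. Slc36a1 ranged from 4.18 to 4.87 log2 CPM in dKO and 4.28 to 4.51 in miR-146a_KO, against 4.49 to 5.26 in TIFAB_KO and 4.09 to 4.84 in WT. Replicate 3 of TIFAB_KO, which stood apart from the other libraries, was the highest of all 13 for Hint1 (7.11) and the lowest for Rapgef6 (7.41). The differences in miR-146a_KO against WT were 0.15 ± 0.23 for Hint1, 0.031 ± 0.18 for Rapgef6 and -0.13 ± 0.24 for Slc36a1 (log2, SE). Their size and, for 2 of them, their sign rest on single libraries. Leaving out 1 library at a time, Hint1 ranged from 0.0061 (without miR-146a_KO replicate 2) to 0.34 (without miR-146a_KO replicate 3). Over the same omissions Rapgef6 ranged from -0.028 (without WT replicate 1) to 0.065 (without WT replicate 3). Slc36a1 ranged from -0.36 (without WT replicate 3) to 0.023 (without WT replicate 2).

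**Figure D1:**
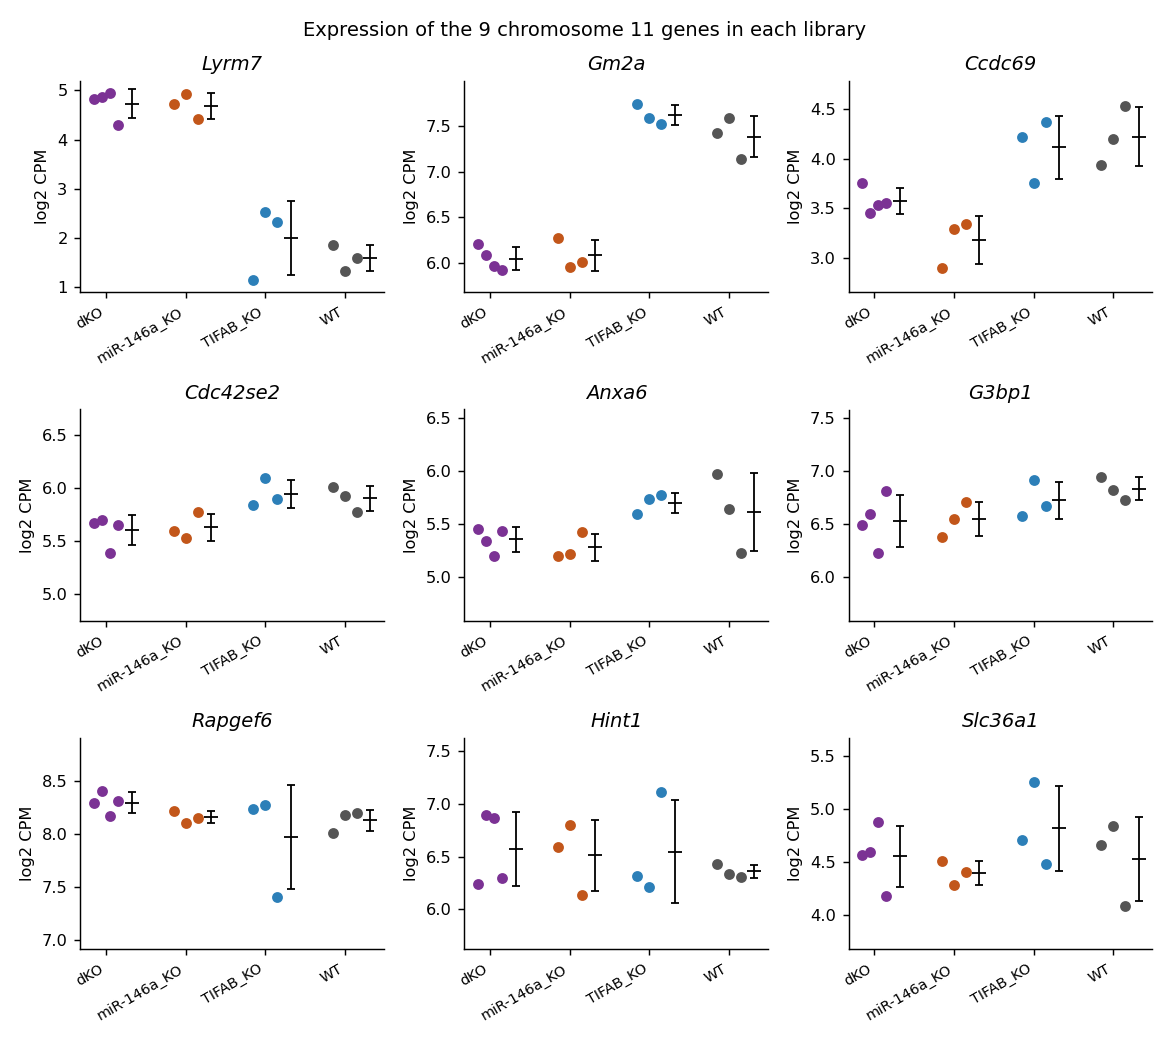
Expression of the 9 genes in log2 CPM (vertical axes, each at least 2 log2 units tall), 1 point per library, by group, with the group mean and SD as a bar beside the points. For Lyrm7 the 7 libraries of dKO and miR-146a_KO sit at 4.30 to 4.94, above TIFAB_KO and WT, and for Gm2a they sit at 5.93 to 6.28, below them.

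Across all 11867 tested genes, limma with Benjamini-Hochberg adjustment at 0.05 called 10 in miR-146a_KO against WT (0.0843%) and 4 in dKO against TIFAB_KO (0.0337%). Of the 9 genes, Lyrm7 and Gm2a were among the calls in both, which is how they came to be described here and is no support for them. Libraries with and without miR-146a did not overlap for 186 tested genes (1.57%), 126 of them higher (1.06%) and 60 lower (0.506%) without miR-146a, and for 4 of the 9 genes (Lyrm7 higher, Gm2a, Ccdc69 and Cdc42se2 lower). Averaged over both Tifab backgrounds, the difference of Lyrm7 (2.91 ± 0.22) ranked 1 in size among all tested genes and that of Gm2a (-1.43 ± 0.10) ranked 34. The median size of that average was 0.31 over the 9 genes and 0.21 over all tested genes (log2). The 9 were picked with these values known, so the larger median is no support for them.

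**Figure D2:**
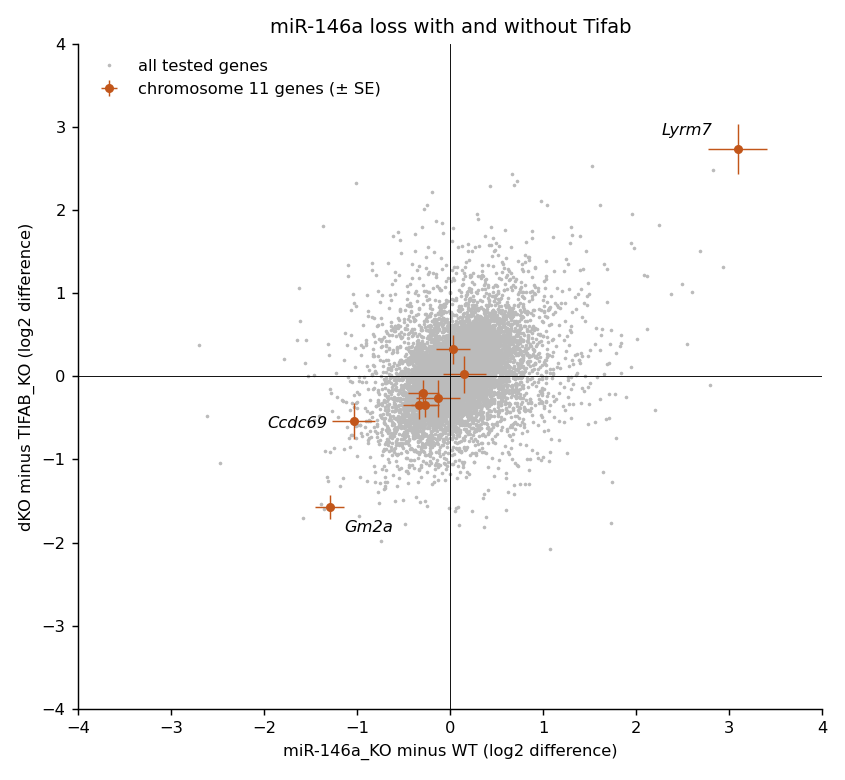
Log2 difference of each tested gene (grey) and of the 9 genes (orange, bars ± SE) in miR-146a_KO minus WT (horizontal) and dKO minus TIFAB_KO (vertical), comparisons that share no library. Lyrm7 stands at 3.09 and 2.73, Gm2a at -1.30 and -1.57 and Ccdc69 at -1.04 and -0.54, while the remaining 6 lie in the cloud of all genes. Among the grey points, Tgtp1 lies near Lyrm7 at 2.83 and 2.49, and Wdfy1 lies at 1.53 and 2.53.

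The loss of Tifab was fitted on both backgrounds, and none of the 9 passed. The 9 genes were picked with their values in all 13 libraries known, so this is no independent test of them. In TIFAB_KO against WT, limma called 2 genes of all tested (0.0169%) and 0 of the 9 (adjusted p = 0.999 for each); at an unadjusted p under 0.05 were 5.11% of all tested and 0 of the 9. The WT libraries of this comparison also entered those above. In dKO against miR-146a_KO it called 6 of all tested (0.0506%) and again 0 of the 9 (adjusted p = 0.9998 for each), and at an unadjusted p under 0.05 were 1.93% of all tested and 0 of the 9. Lyrm7 differed by 0.41 ± 0.32 (95% interval -0.26 to 1.07) in TIFAB_KO against WT and by 0.049 ± 0.30 (-0.57 to 0.67) in dKO against miR-146a_KO. Gm2a differed by 0.23 ± 0.15 (-0.086 to 0.55) in TIFAB_KO against WT and by -0.036 ± 0.14 (-0.33 to 0.26) in dKO against miR-146a_KO. These intervals do not reach the size of the Gm2a difference with miR-146a loss. Gm2a was picked by that difference, so this is a description. Ccdc69 was the member whose dKO libraries, 3.45 to 3.76 log2 CPM, all lay above those of miR-146a_KO, 2.90 to 3.34, as 3.72% of tested genes do in either direction. Its difference was 0.39 ± 0.22 and did not pass (limma adjusted p = 0.9998).

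The interaction, the difference of dKO against TIFAB_KO less that of miR-146a_KO against WT, asks whether the effect of miR-146a loss depends on Tifab. It is built from the comparisons that chose the genes, so its values for the 9 are a description with no test. Over the whole table limma called 0 of the 11867 genes (0.0%), with 502 genes (4.23%) at an unadjusted p under 0.05. Among the 9, Ccdc69 had the largest interaction, 0.50 ± 0.32 (95% interval -0.17 to 1.17), and Lyrm7 had -0.36 ± 0.44 (-1.27 to 0.55) and Gm2a -0.27 ± 0.21 (-0.71 to 0.17). The interval of Lyrm7 allows its 8.53-fold difference to be smaller or larger in Tifab-null marrow, so equal effects were not shown.

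**Figure D3:**
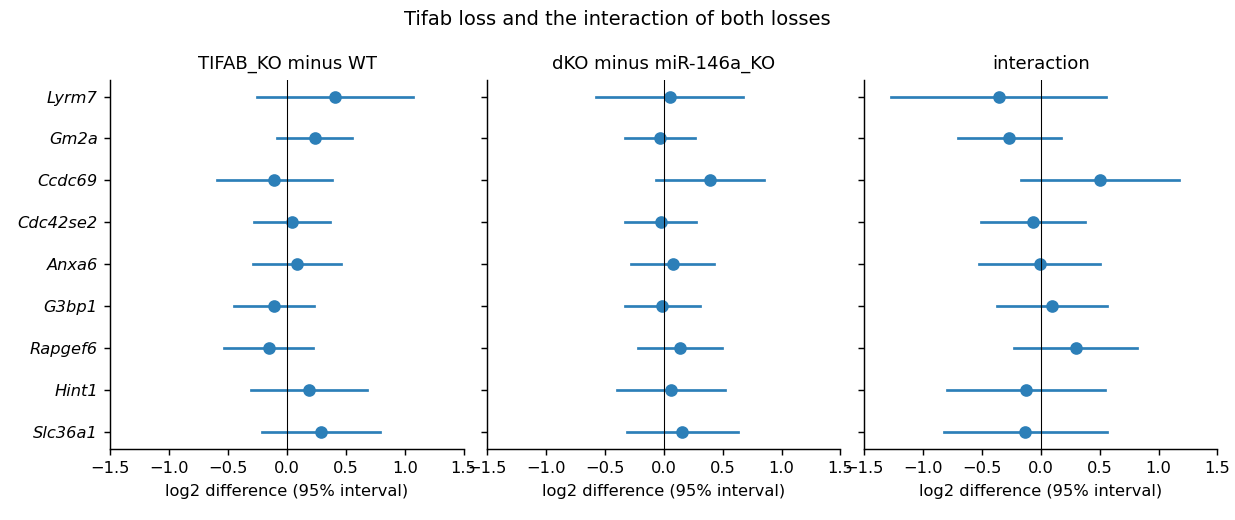
Log2 differences (points) with 95% intervals (lines) of the 9 genes for Tifab loss with miR-146a present (left), Tifab loss with miR-146a absent (middle) and the interaction (right). In both Tifab comparisons every interval spans 0, and in the interaction, a description only, that of Lyrm7 is the widest, -1.27 to 0.55.

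The genes span chr11:54522847-55504838 (mm10, 0.98 Mb), from the start of Rapgef6 to the end of G3bp1. GENCODE M21 annotates 30 genes there, of which 20 are rows of the table and 14 were tested, the 9 and 5 more. The order along the chromosome is Rapgef6, Cdc42se2, Lyrm7, Hint1, Anxa6, Ccdc69, Gm2a, Slc36a1 and G3bp1. Lyrm7, at chr11:54826866-54860916 on the minus strand, and Gm2a, at chr11:55098115-55113029 on the plus strand, are thus parted by Hint1, Anxa6, Ccdc69 and others. Hint1, next to Lyrm7 and transcribed away from it, differed by only 0.15 ± 0.23 in miR-146a_KO against WT, where Lyrm7 differed by 3.09 ± 0.32. The size of the difference thus varied between adjacent genes.

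The 5 tested genes of the interval outside the 9 were Gpx3 (a secreted glutathione peroxidase), Tnip1 (an inhibitor of NF-kB that binds A20), Atox1 (a copper chaperone), Slc36a1os and Gm12238. None passed in any comparison (limma adjusted p), and none had libraries without overlap. At an unadjusted p under 0.05 were 2 of the 5 in dKO against TIFAB_KO (18.5% of all tested genes) and 0 of the 5 in miR-146a_KO against WT (9.53% of all tested genes). Tnip1 differed by 0.16 ± 0.20 in miR-146a_KO against WT and -0.026 ± 0.19 in dKO against TIFAB_KO (limma adjusted p = 0.799 and 0.957). The widest spread between the comparisons was that of Gpx3, a gene of at most 55 reads per library, with -0.18 ± 0.60 and -1.19 ± 0.56. Rows too low to test were Slc36a3, Slc36a2, Fat2, Sparc, Mir7652 and Lyrm7os, and Lyrm7os, the antisense gene beside Lyrm7, had 0 reads in all 13 libraries. No exon of Lyrm7 or Gm2a overlaps an exon of another annotated gene, so the counts of these 2 genes are not shared through overlap. Lyrm7 does share short stretches with 2 other genes at 95% identity or more over at least 100 bases, the closest with Glmp on chromosome 3 (123 bases at 95.1%, 3.58% of the Lyrm7 transcript). Neither of these genes is a row of the table under its GENCODE M21 symbol, and rows under other symbols were not looked for.

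**Figure D4:**
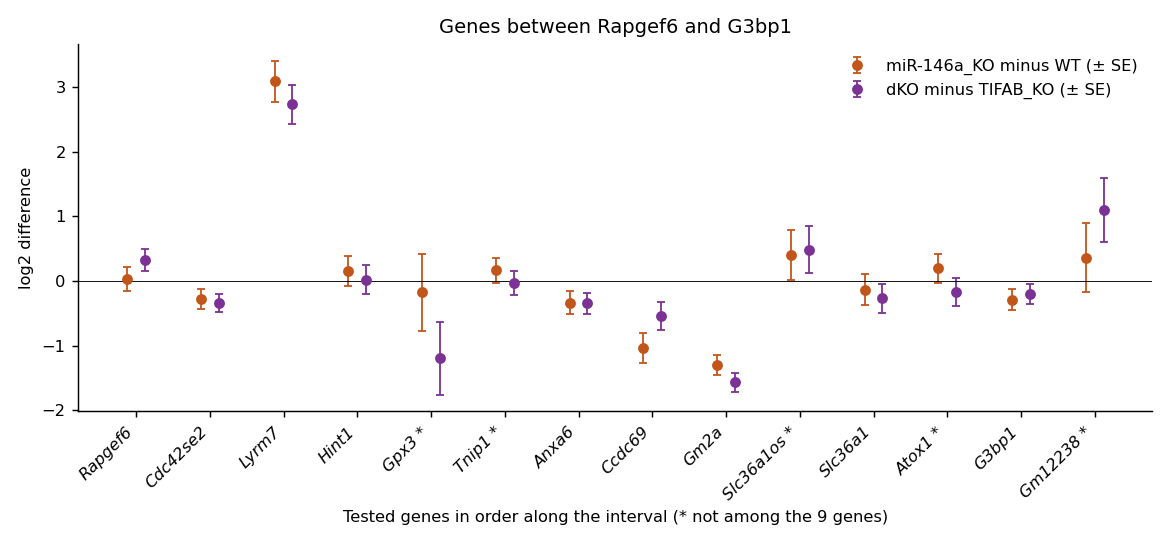
Log2 difference (± SE) of the 14 tested genes of the interval in order along the chromosome, in miR-146a_KO minus WT (orange) and dKO minus TIFAB_KO (purple). Lyrm7 stands at 3.09 and 2.73 between neighbours near 0, Ccdc69 and Gm2a are the lowest adjacent pair in miR-146a_KO minus WT, and the starred genes were not among the 9.

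The miR-146a gene lies at chr11:43374397-43374461, 11.1 to 12.1 Mb proximal of the 9 genes, and 73 tested genes lie between. Of these 73, limma called 0 in miR-146a_KO against WT and 0 in dKO against TIFAB_KO, and at an unadjusted p under 0.05 they were 13 and 17, where 9.53% and 18.5% of all tested genes reached it. Libraries with and without miR-146a did not overlap for 1 of the 73, where they did not for 1.57% of all tested genes. This gene was Tgtp1, an interferon-inducible GTPase, named after its values were seen. It averaged 1.89 ± 1.75 log2 CPM in dKO and 1.63 ± 0.26 in miR-146a_KO, against -0.59 ± 1.08 in TIFAB_KO and -1.20 ± 1.32 in WT (SD). It had 13 to 172 reads per library without miR-146a, the 172 in dKO replicate 3, and 1 to 14 with it, and its close relative Tgtp2 makes its counts uncertain. The tested genes next to the miR-146a gene, within 1.08 Mb, are Pttg1, Slu7, Ccnjl, Pwwp2a, Ttc1 and Ublcp1, and none was called or free of overlap. At an unadjusted p under 0.05 were 3 of the 6 in miR-146a_KO against WT (9.53% of all tested genes) and 1 of the 6 in dKO against TIFAB_KO (18.5% of all tested genes). Pttg1, which encodes securin and is the nearest, differed by 0.91 ± 0.28 in miR-146a_KO against WT and 0.99 ± 0.26 in dKO against TIFAB_KO (limma adjusted p = 0.408 and 0.133).

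Over chromosome 11 as a whole, 17 of 942 tested genes (1.80%) had libraries without overlap, 13 of 928 (1.40%) outside the interval, against 162 of 10361 (1.56%) on the other chromosomes. Cut into 2 Mb windows, 12 of the 56 windows of chromosome 11 with a tested gene held such a gene. The window from 54 to 56 Mb held 4 of them among 16 tested genes (Lyrm7, Gm2a, Ccdc69 and Cdc42se2). Of 1121 such windows over the genome, this was the only 1 with 4, and 5 windows had 3 or more. The windows are a fixed grid from 0 Mb, but the genes were already known to differ, so this is a description of where they lie.

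**Figure D5:**
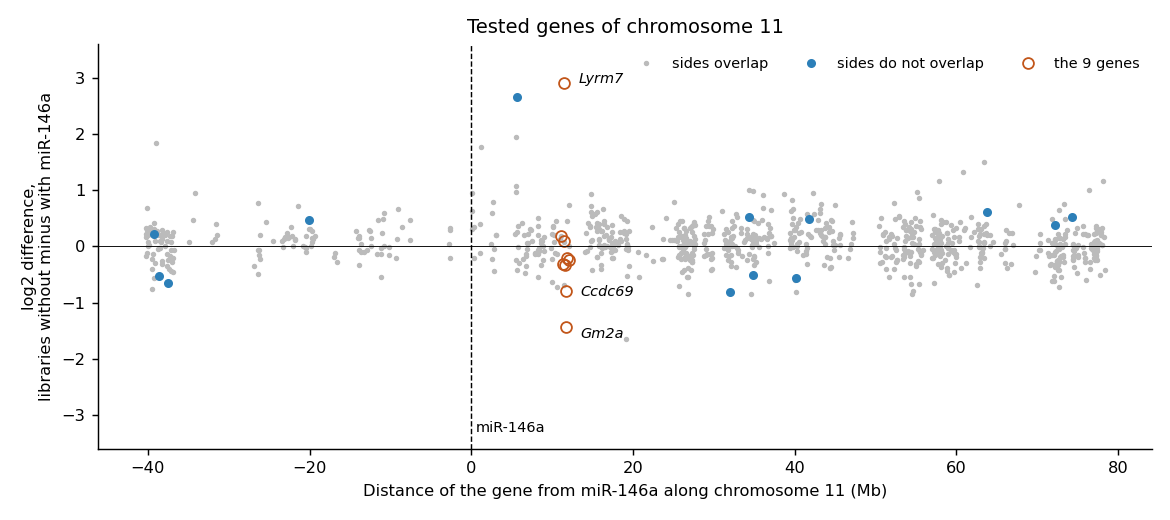
Log2 difference of every tested gene of chromosome 11, averaged over both Tifab backgrounds (vertical), against its distance from the miR-146a gene in Mb (horizontal, dashed line at 0). Blue points are genes whose 7 libraries without miR-146a do not overlap the 6 with it, and open orange circles are the 9 genes. Of the 9, Lyrm7 (2.91) and Gm2a (-1.43) lie farthest from 0. Tgtp1, between miR-146a and the 9 genes, differed by 2.83 in miR-146a_KO minus WT and 2.49 in dKO minus TIFAB_KO. On chromosome 11, 8 tested genes, Lyrm7 and Gm2a among them, differed by more than 1 with the same sign in both comparisons. The share on other chromosomes is not given here.

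Genes of the same pathways and families were described by lists. They were written for complex III, LYR-motif proteins, lysosomal sphingolipid degradation, annexins, stress granules, CDC42 and RAP signalling, the HINT family, and SLC36 transporters with the lysosomal mTORC1 scaffold, each without the 9 genes. None of the 97 tested genes was called in any comparison by limma at 0.05, and the background was 0.0843% in miR-146a_KO against WT and 0.0337% in dKO against TIFAB_KO. At an unadjusted p under 0.05 were 10 of the 97 in miR-146a_KO against WT, where 9.53% of all tested genes were, and 21 of the 97 in dKO against TIFAB_KO, where 18.5% were. Of the subunits and assembly factors of complex III, for which Lyrm7 encodes a chaperone of the Rieske protein, 13 of 14 were tested. Their median log2 difference was -0.083 in miR-146a_KO against WT and -0.13 in dKO against TIFAB_KO, where all tested genes had medians of 0.093 and 0.092. The small subunit genes Uqcr10 (-0.44 ± 0.19 and -0.62 ± 0.18) and Uqcr11 (-0.23 ± 0.22 and -0.78 ± 0.21) had values below 0, and the assembly factor gene Ttc19 had values above 0 (0.44 ± 0.21 and 0.53 ± 0.20), in miR-146a_KO against WT and dKO against TIFAB_KO. None of the 3 passed (limma adjusted p = 0.132 to 0.734). Uqcr10, which lies on chromosome 11 outside the interval, had libraries with and without miR-146a that did not overlap, as 1.57% of tested genes did.

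For lysosomal sphingolipid degradation, the pathway of Gm2a, 13 of 14 genes were tested and the medians were 0.059 in miR-146a_KO against WT and -0.19 in dKO against TIFAB_KO. Hexa, the alpha subunit of the enzyme that Gm2a serves, had -0.26 ± 0.19 and -0.80 ± 0.18 (limma adjusted p = 0.65 and 0.13). Psap, the precursor of the related saposins, had -0.15 ± 0.16 and -0.38 ± 0.15 (adjusted p = 0.765 and 0.201). In TIFAB_KO against WT the median of this list was 0.20, with Neu1, a lysosomal sialidase, at 0.94 ± 0.32 (adjusted p = 0.699), beside the higher macrophage marker sums of TIFAB_KO. Their part in it was not tested.

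The lists around the other members had these median log2 differences in miR-146a_KO against WT, where that of all tested genes was 0.093. LYR-motif proteins had -0.025 (9 of 11 tested), annexins -0.033 (8 of 11), stress granule proteins 0.11 (14 of 14), CDC42 and RAP signalling 0.041 (24 of 26), the HINT family 0.070 (4 of 4) and SLC36 transporters with the mTORC1 scaffold 0.17 (12 of 15). In dKO against TIFAB_KO, where that of all tested genes was 0.092, the medians were -0.18 for LYR-motif proteins, -0.13 for annexins, 0.25 for stress granule proteins, 0.084 for CDC42 and RAP signalling, -0.28 for the HINT family and 0.18 for SLC36 transporters with the mTORC1 scaffold. Of the 14 stress granule genes, 13 had values above 0 in dKO against TIFAB_KO and 10 in miR-146a_KO against WT. The medians of all tested genes were above 0 as well (0.092 and 0.093), and the share of them above 0 is not given here. Among annexins, Anxa9 had 0.58 ± 0.23 and Anxa3 0.61 ± 0.20 in miR-146a_KO against WT, where Anxa6 had -0.33 ± 0.18, and neither Anxa9 nor Anxa3 passed (limma adjusted p = 0.482 and 0.423). In dKO against TIFAB_KO, Anxa9 had 0.54 ± 0.21, Anxa3 -0.19 ± 0.19 and Anxa6 -0.34 ± 0.17. Of the 8 tested annexins of the list, 4 were above 0 in miR-146a_KO against WT and 3 in dKO against TIFAB_KO. Hint2, a mitochondrial relative of Hint1, had -1.06 ± 0.35 in miR-146a_KO against WT and did not pass (limma adjusted p = 0.443).

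The genes outside the 9 that followed Lyrm7 and Gm2a most closely across the 13 libraries, or ran most opposite to them, all lie on other chromosomes. With Pearson r as the measure of likeness, which here mostly records the gap between the 7 libraries without miR-146a and the 6 with it, the 5 genes highest to Lyrm7 were Adpgk (0.94), Mybl1 (0.92), Parp16 (0.90), Tln2 (0.90) and Vps13c (0.90). Adpgk, Parp16, Tln2 and Vps13c all lie on chromosome 9, the first at chr9:59291558-59324052 and the last at chr9:67840396-67995638. Lowest to Lyrm7 were Tmem40 (-0.92), Lsp1 (-0.89), Lat (-0.88), Dnpep (-0.87) and 1810058I24Rik (-0.87). For Gm2a the highest were 1810058I24Rik (0.89), Tmem40 (0.89), Rplp1 (0.87), D8Ertd738e (0.83) and Rplp2 (0.83), and the lowest Wdfy1 (-0.93), Mybl1 (-0.91), Wars2 (-0.90), Gpr174 (-0.89) and Golga1 (-0.88). Vps13c, a gene for a lipid transfer protein, was higher without miR-146a by 1.01 ± 0.13, and Rplp1, a ribosomal protein gene on chromosome 9 at chr9:61913284-61914542, was lower by 1.04 (log2 average over both backgrounds, -1.04 ± 0.14). Wdfy1, an endosomal protein gene on chromosome 1, was higher by 2.03 ± 0.16.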

How the data were processed

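RNA-seq of 13 libraries of sorted LK cells was analysed. Total RNA was amplified with the Ovation system and made into Nextera XT libraries, per the labels' protocols. Reads were aligned to mm10 with TopHat, counted with featureCounts and handled with limma, per the submitters' processing notes. No version of these tools is stated in the sources at hand. The deposited values are log2 CPM, which the authors made after adding 0.5 to a gene's reads and 1 to the library total. Whole reads came back from 100% of values within 0.01 read. No strand setting is stated.

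The 4 group means were fitted to these values with limma 3.58.1 (R 4.3.3; moderated test with a variance trend) over the 11867 genes that average 0 log2 CPM or more, with Benjamini-Hochberg adjustment at 0.05. The code was tested on simulated data. The members and lists were chosen with earlier results of these data known. Genes outside the 9 were named by fixed rules: the 5 highest and 5 lowest correlations to Lyrm7 and Gm2a, up to 3 genes per list with the smallest unadjusted p, and called genes of the interval. The tested genes of the interval, the genes nearest miR-146a and Tgtp1 were named beyond these rules. Positions are from GENCODE M21, matched by symbol for 94.4% of rows, and near copies were sought with blastn 2.17.0 (95% identity over 100 bases). The alternatives were other filters, scalings, offsets, variance models, voom weights, smaller fits, a replicate block and leaving out libraries. Same-numbered replicates were not taken as pairs: over 18 pairs, the correlation of their deviations was -0.20 to 0.23, with 2 over 0.1.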

Additional observations from a re-analysis of the deposited data

Results flagged for a closer look

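In dKO, replicate 3 of Cdc42se2 lay at 5.39 log2 CPM, below the other 3 libraries at 5.65, 5.67 and 5.70. Its gap to the nearest was 0.851 of the range of the group, above the limit for 4 samples. Chance gives such a gap in about 1 in 20 groups, and dKO was looked at for each of the 9 genes. Among the dKO libraries, it also correlated least with all others (median r of 0.951). Without it and TIFAB_KO replicate 3, Cdc42se2 differed by -0.29 ± 0.16 in dKO against TIFAB_KO, where with all libraries it differed by -0.34 ± 0.14.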

How the results depend on the processing

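Lyrm7 stayed higher and Gm2a lower without miR-146a under every alternative run. Lyrm7 moved with log2(CPM + 1), an offset that shrinks low genes, to 2.75 in miR-146a_KO against WT and 2.79 in dKO against WT. Gm2a moved under quantile normalization to -1.70 in dKO against TIFAB_KO (the cause was not tested). Leaving out 1 library at a time gave 2.96 to 3.23 for Lyrm7 and -1.42 to -1.19 for Gm2a in miR-146a_KO against WT, and 2.31 to 2.99 and -1.62 to -1.51 in dKO against TIFAB_KO.

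No member passed in the Tifab comparisons under any alternative; the lowest limma adjusted p values were 0.304 in TIFAB_KO against WT and 0.999 in dKO against miR-146a_KO. Where leaving out 1 library turned a sign there, the difference over all libraries was smaller than its SE. In TIFAB_KO against WT these included Hint1 (0.19 ± 0.23) and Rapgef6 (-0.16 ± 0.18). With the replicate block, Gm2a had 0.0037 in dKO against miR-146a_KO; the block moved no call of a member. For the interaction of Anxa6, median centring gave 0.019 and voom weights on recovered reads 8.5e-05. Without TIFAB_KO replicate 3 and dKO replicate 3, chosen after seeing the data, TIFAB_KO against WT gave -0.093 for Hint1 and 0.13 for Rapgef6. The same omission gave, in dKO against miR-146a_KO, -0.020 for Lyrm7, -0.035 for Hint1, 0.045 for Cdc42se2 and 0.087 for G3bp1, and in the interaction 0.058 for Hint1 and 0.077 for Anxa6. The average over both Tifab backgrounds was also chosen after seeing the data.

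Leaving out 1 library at a time, TIFAB_KO against WT ranged from -0.25 to 0.072 for Ccdc69, -0.093 to 0.35 for Hint1, -0.033 to 0.095 for Cdc42se2, -0.31 to 0.13 for Rapgef6 and -0.11 to 0.26 for Anxa6. In dKO against miR-146a_KO it ranged from -0.087 to 0.19 for Lyrm7, -0.098 to 0.060 for Gm2a, -0.13 to 0.21 for Hint1, -0.079 to 0.045 for Cdc42se2 and -0.11 to 0.087 for G3bp1. The interaction ranged from -0.31 to 0.15 for Hint1, -0.12 to 0.0070 for Cdc42se2, -0.19 to 0.18 for Anxa6 and -0.30 to 0.091 for Slc36a1. Lyrm7 rests on 18 to 64 reads in the libraries with miR-146a, which limits the precision of its fold.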
